A study of Mus musculus with 12 samples.

Results

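The Gimap genes encode a family of small GTPases of the immune system that lie side by side on mouse chromosome 6. The members taken here are Gimap1, Gimap3, Gimap4, Gimap5, Gimap6, Gimap7, Gimap8 and Gimap9, and every CpG that the deposited tables assign to one of these symbols was followed by position through the division fractions. That gave 27 CpGs of 760348 in the table with at least 10 reads in every sample, from 4 of the 8 genes. A wider table, with at least 10 reads in every fraction after its 2 hosts were summed, held 74 member CpGs of 1639598, of which 47 were outside the first table. The tables name each CpG after its nearest transcript, and Gimap9 had no CpG in either table. The family was chosen by measured values, the gene-level loss of Gimap4 at Div8pos and at Div8neg against Div0, so the members' differences from Div0 in those fractions are given as a description, without a test.

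Gimap proteins bind GTP through a domain of the AIG1 type and are found mainly in lymphocytes, where they act in the survival of resting cells. In mice, loss of Gimap5 or of Gimap1 depletes mature lymphocytes, Gimap3 sits on mitochondria, and Gimap4 has been tied to the pace of T cell death. DNA methylation at a CpG is the share of DNA copies that carry a methyl group there. It is passed on at each division by maintenance methylation and is lost either passively over divisions or by active oxidation.

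The samples were B cells (B220+ CD43-) from spleens of naive mice, labelled with CFSE or CTV, dyes that dilute at each division, and transferred into uMT hosts, which lack mature B cells of their own. The hosts received LPS, a bacterial lipopolysaccharide that drives B cells to divide and become plasmablasts, and the transferred cells were sorted from spleen on day 3. All samples are labelled female, 8 weeks old and of strain B6.SJL-Ptprca Pepcb/BoyJ, whereas the design text gives C57/BL6J for the donors. Reduced representation bisulfite sequencing (RRBS), which reads methylation at CpGs near MspI and TaqI cutting sites, was run on 12 samples. They form 6 fractions from each of 2 hosts, numbered 196 and 197.

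The fractions were Div0 (undivided cells that had met LPS too), Div1, Div3 and Div5 after 1, 3 and 5 divisions, and 2 fractions after at least 8 divisions. Of these, Div8neg lacked CD138, the surface marker of plasmablasts, and Div8pos carried it. Fractions of one host came from the same animal. With 2 hosts each, a spread is that of 2 animals, and each value below is given for host 196 first and host 197 second unless a mean and SD are stated.

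Summed reads per sample ran between 17969105 and 56775157, with a median coverage of 20 to 66 reads per CpG over all CpGs and 23 to 70 over the member CpGs. The 3 B cell marker genes with a CpG within 500 bp of their start sites had a median level of 2.90% at Div8pos and 2.53% at Div0, against 53.6% at Div8pos and 77.8% at Div0 for 3 T cell markers. At Div0 the ranges overlapped, with 0% to 26.9% for the B cell markers and 19.9% to 90.8% for the T cell markers. The single myeloid marker measured there had 85.8% at Div8pos and 97.7% at Div0, and 4 plasma cell markers had a median of 1.51% at Div8pos and 2% at Div0. Over all CpGs the median difference was -3.73 percentage points at Div8pos against Div0 and -1.67 points at Div8neg against Div0.

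Only 2 members had measured CpGs within the 250 bases before the start site, so these promoters are shown with the Gimap4 promoter, which belongs to the gene that changed most and had none. The sequences are from RefSeq (GRCm38.p6, plus strand in all 3, chromosome 6), and run 5′ to 3′ up to the start site. In Gimap1 (chr6:48738797-48739046) and Gimap5 (chr6:48745947-48746196) the capitals mark CpGs with a measured level, placed by their distance from the start site. The capital C that ends the Gimap1 sequence belongs to a CpG whose G is the next base. In Gimap4 (chr6:48684328-48684577) the capitals mark all CpGs, and none of them was measured.
Gimap1: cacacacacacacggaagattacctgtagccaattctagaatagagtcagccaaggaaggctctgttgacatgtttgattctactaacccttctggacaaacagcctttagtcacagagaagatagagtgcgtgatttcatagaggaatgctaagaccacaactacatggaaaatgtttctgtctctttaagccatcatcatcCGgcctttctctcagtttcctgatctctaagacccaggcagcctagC
Gimap5: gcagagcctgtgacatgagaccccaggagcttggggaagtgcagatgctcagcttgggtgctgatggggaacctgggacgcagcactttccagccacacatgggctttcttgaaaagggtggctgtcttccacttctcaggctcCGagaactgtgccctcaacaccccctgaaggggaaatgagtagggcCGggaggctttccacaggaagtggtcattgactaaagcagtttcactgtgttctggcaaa
Gimap4: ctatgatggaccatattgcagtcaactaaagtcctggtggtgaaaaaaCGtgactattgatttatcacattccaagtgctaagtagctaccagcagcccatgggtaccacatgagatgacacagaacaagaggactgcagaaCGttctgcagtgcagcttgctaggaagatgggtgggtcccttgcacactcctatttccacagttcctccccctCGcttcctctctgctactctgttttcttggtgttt

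Each of these promoters held 3 CpGs. Gimap1 and Gimap5 each held 1 CCGG, the MspI site, and Gimap4 held neither CCGG nor TCGA, the TaqI site. Both motifs are palindromes, so each match counts for both strands. Of 32851 promoters in the RefSeq table, 47.1% held CCGG, 18.5% TCGA and 54.6% either within the same 250 bases, and the median promoter had 6 CpGs. Over all genes, 58.9% of 39529 CpGs placed by distance in this way fell on a CG, and start sites of the 2 builds need not match. Both CpGs of Gimap1 and both CpGs of Gimap5 did.

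**Figure D1:**
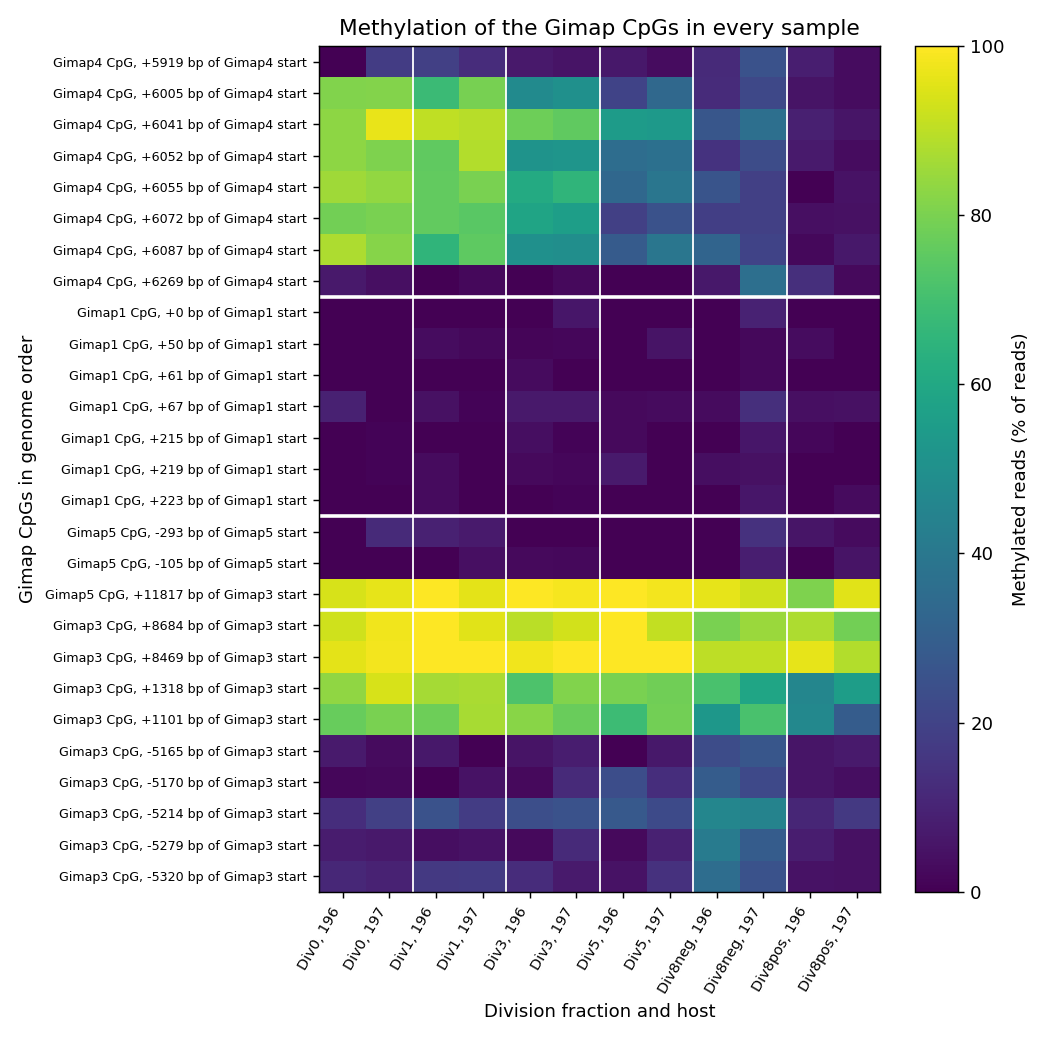
Methylation (percent of reads, colour) of the 27 Gimap CpGs, in genome order down the page and labelled by their distance from the nearest start site, in the 12 samples (fraction, host). A run of 6 CpGs of Gimap4 has lower mean levels from fraction to fraction between Div0 and Div8pos. The CpGs of Gimap1 stay low, and the 5 CpGs upstream of Gimap3 have their highest fraction mean at Div8neg.

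Gimap4, tied to T cell death in mice, had lower methylation in fractions with more divisions, and the lowest at Div8pos. Not every difference between neighbouring fractions was called. Its 8 CpGs lay at chromosome 6, positions 48642757 to 48643107 (mm9), in sequence annotated as intergenic. They are 695 to 1045 bp beyond the end of the Gimap4 transcript and about 6 kb from its start site (5919 to 6269 bp). The run followed below was set by the calls at Div5 against Div1, from the first called Gimap4 CpG to the last. It held 6 CpGs, at 48642843, 48642879, 48642890, 48642893, 48642910 and 48642925, which fell within 83 bp of each other. CpGs this close can be read from the same DNA fragments and are not independent of one another.

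The mean level of these 6 CpGs was 83.1% and 84.1% at Div0, 75.3% and 81.1% at Div1, and 57.7% and 58.1% at Div3. It was 31.9% and 38.1% at Div5, 21.7% and 23.2% at Div8neg, and 4.56% and 4.67% at Div8pos. In both hosts each fraction lay below the one before it, and the hosts of different fractions did not overlap. Coverage of these CpGs ran between 21 and 141 reads in a sample.

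The CpGs of the run differed in how far they had gone by Div5. The slowest, 48642879, still had 54.9% and 53.7% at Div5, against 90.5% and 89.1% at Div1. The CpG at 48642910 had 19.0% and 25.4% at Div5, against 76.0% and 74.3% at Div1. By Div8pos the 6 CpGs had converged, with fraction means between 2.34% and 7.29%.

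Comparisons of Div1, Div3 and Div5 with each other take their levels from none of the samples in which the loss had first been seen. Their spread was still estimated over all 12 samples, and all fractions came from the same 2 hosts. The quasi-binomial model tests methylated and unmethylated reads of each CpG. Its spread between hosts was a single value, 1.16, estimated over all CpGs and used for every CpG. Its p-values therefore do not measure the spread of the hosts at the CpG tested. A CpG was called at an adjusted p under 0.05 together with a change of 20 points or more. At Div5 against Div1, 6 of the 27 member CpGs were called lower and none higher. They are the CpGs of the run, which was set by these calls, so that all of it was called is no further result. Of all CpGs tested, 0.0948% were called lower and 0.00263% higher in this comparison.

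The difference at Div5 against Div1 was -46.9 points at 48642843 (adjusted p = 2.05e-12), -35.5 at 48642879 (2.60e-08) and -45.9 at 48642890 (6.87e-12, quasi-binomial model). It was -41.6 points at 48642893 (adjusted p = 0.000242), -52.9 at 48642910 (2.83e-07) and -36.4 at 48642925 (0.00657, quasi-binomial model). Both Div5 samples lay below both Div1 samples at each of the 6. Without the Div1 sample of host 197, 2 of the 6 calls were left. With the dispersion of each CpG taken alone, none of the 27 was called in any comparison, as none of all CpGs was, though 7 had an unadjusted p under 0.05 at Div5 against Div1.

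The loss at the 6 CpGs was also set beside other CpGs that began as high. The 6 were picked by their call in this same comparison, so the shares describe them and are no test. At Div1 the 6 CpGs had levels between 70.4% and 89.8%. Among the 74584 CpGs in that range at Div1, 268 (0.359%) were called lower at Div5, and the median difference was 0.657 points. A difference of -35.5 points, the smallest of the 6, or beyond was found at 241 of them (0.323%), the 6 included.

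Shorter steps gave fewer calls. At Div3 against Div1, 2 of the 27 member CpGs were called lower, where 0.00881% of all CpGs were (higher, 0.000395%). They were the Gimap4 CpGs 48642843, with -25 points (adjusted p = 0.00104, quasi-binomial model), and 48642890, with -30.4 points (adjusted p = 6.11e-05, quasi-binomial model). Without the Div1 sample of host 197 neither was called, and without either Div3 sample 1 was left.

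At Div5 against Div3, 2 member CpGs were called lower, where 0.021% of all CpGs were (higher, 0.000395%), namely 48642879 with -22.5 points (adjusted p = 0.0497) and 48642910 with -35.1 points (0.0340, quasi-binomial model). Neither was called when any 1 of the 4 samples was left out, or with the host as a block. The trend over Div1, Div3 and Div5 as a number called the 6 Gimap4 CpGs and no other member, where 0.11% of all CpGs were called lower and 0.00473% higher. Its fitted change at the 6 CpGs, scaled to 5 divisions, lay between -59.0 and -39.1 points. This scaled change reaches past the fractions used, as Div0 was not among them. The differences at Div5 against Div1 lay between -52.9 and -35.5 points. At the uncalled Gimap5 CpG 48695902 the scaled change was -99.9 points, though its mean level was 8.18% at Div1 and 0% at Div5.

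**Figure D2:**
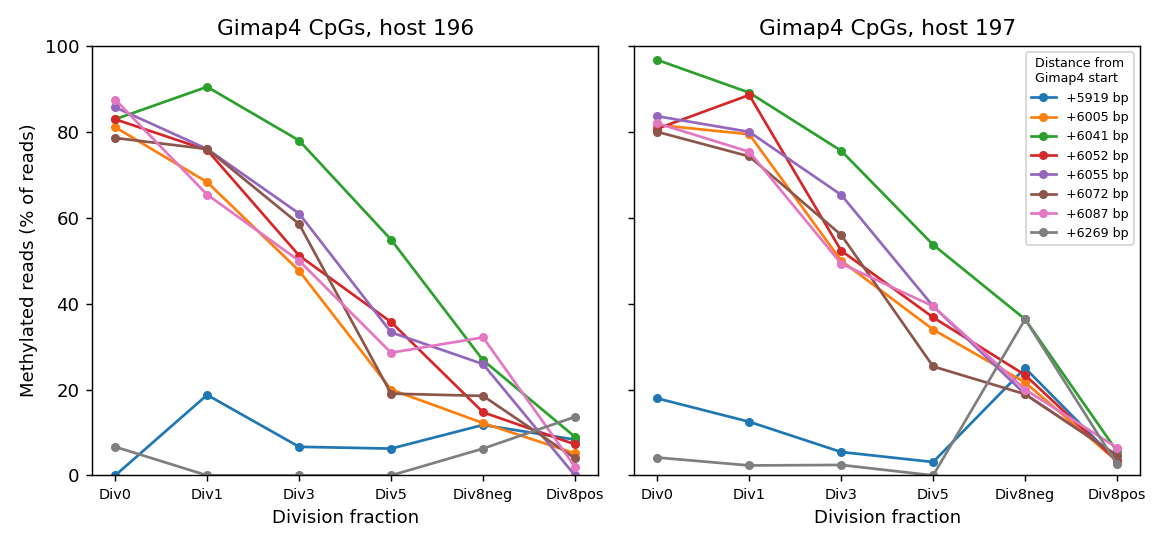
Methylation (percent of reads, vertical axis) of the 8 Gimap4 CpGs by division fraction (horizontal axis), 1 panel for each host and 1 line for each CpG, labelled by its distance from the Gimap4 start site. The 6 CpGs between +6005 and +6087 bp go down together in both hosts, while those at +5919 and +6269 bp start below 20% at Div0 and stay under 40%.

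The 2 Gimap4 CpGs outside the run did not share its course. The CpG at 48642757, before the run, had 0% and 17.9% at Div0, 6.25% and 3.12% at Div5, 11.8% and 25% at Div8neg, and 8.33% and 3.33% at Div8pos. The CpG at 48643107, after it, had 6.67% and 4.17% at Div0, 0% in both hosts at Div5, 6.25% and 36.4% at Div8neg, and 13.6% and 2.56% at Div8pos. The single high value was that of host 197 at Div8neg, and neither CpG was called in any comparison.

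Taken as a gene, as the mean of its 8 CpGs, Gimap4 had a level of 64.5 ± 1.89% at Div0, 60.8 ± 2.74% at Div1, 44.3 ± 0.305% at Div3 and 26.8 ± 3.00% at Div5. The late fractions had 21.8 ± 4.62% (Div8neg) and 5.20 ± 1.36% (Div8pos), each with the SD over 2 hosts. Among 16505 genes with at least 5 CpGs, a gene was called in limma when its adjusted p was under 0.05 and it differed by at least 10 points. At Div5 against Div1, Gimap4 differed by -33.9 points (SE 2.25, adjusted p = 0.00168, limma), the largest loss of all genes, where 0.0424% of genes were called lower. On M values, a log ratio of methylated to unmethylated DNA, the adjusted p was 0.0510.

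The division number taken as a numeric term over Div0, Div1, Div3 and Div5 gave a change of -38.7 points over 5 divisions for Gimap4 (SE 1.98, adjusted p = 0.000184, limma), where 0.103% of genes were called lower. Without Div0 the slope was -8.48 points per division, and the change scaled to 5 divisions was -42.4 points (SE 2.03, adjusted p = 0.00230, limma). That scaled change reaches past the fractions used, and the difference at Div5 against Div1 was -33.9 points. In this trend 0.00606% of genes were called lower, which is Gimap4 alone. The trend over Div0 to Div5 includes the Div0 samples against which the family was chosen and is not independent of that choice. Over these fractions an exact permutation within hosts gave p = 0.00174 (two-sided, the smallest p that the 576 arrangements allow) for the slope of -7.73 points per division. Over Div1, Div3 and Div5, without the Div0 samples, the exact permutation gave p = 0.0556, the smallest that 36 arrangements allow.

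Single steps were not called at the gene level. Gimap4 differed by -16.4 points at Div3 against Div1 (adjusted p = 0.365, limma) and by -17.5 points at Div5 against Div3 (adjusted p = 0.266, limma). In both comparisons limma called 0 genes, and 417 genes at Div3 against Div1 and 763 at Div5 against Div3 had an unadjusted p under 0.05. Restricted to CpGs with at least 20 reads in every sample, which are the 6 of the run, Gimap4 was called in both steps, with differences of -20.3 points (adjusted p = 0.0457) and -22.9 points (adjusted p = 0.0166, limma).

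**Figure D3:**
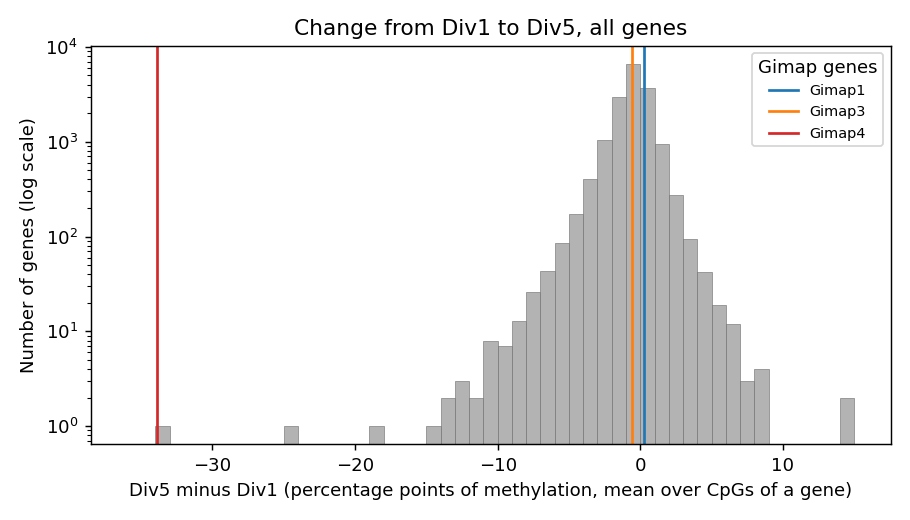
Histogram of the difference in gene-level methylation, Div5 minus Div1, in percentage points (horizontal axis) for 16505 genes (vertical axis, number of genes, log scale), with lines for Gimap1, Gimap3 and Gimap4. Gimap4 stands at -33.9 points at the far left, and Gimap1 (0.267 points) and Gimap3 (-0.551 points) lie in the bulk.

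Comparisons with Div0 share the undivided samples in which the family's loss was first seen, so their p-values for Gimap4 are no independent support. At Div1 against Div0 no member CpG was called by the quasi-binomial model or by edgeR, none of the 27 had an unadjusted p under 0.05, and 0% of all CpGs were called. At Div3 against Div0, 3 Gimap4 CpGs were called lower, at 48642843 (-32.5 points, adjusted p = 9.17e-05), 48642890 (-30.1, 0.00212) and 48642925 (-35.1, 0.0205, quasi-binomial model), where 0.027% of all CpGs were (higher, 0.00118%). Without the Div0 sample of host 197 no call was left, and without that of host 196 or the Div3 sample of host 197 there was 1.

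At Div5 against Div0 the 6 CpGs were called lower, with differences between -57.1 and -35.5 points, where 0.123% of all CpGs were (higher, 0.00552%). The gene-level difference was -37.7 points (adjusted p = 0.000673, limma), with 0.103% of genes called lower and 0.00606% higher. These calls, like those of the trend given next, share the Div0 samples used in choosing the family and are no independent support. The trend over Div0, Div1, Div3 and Div5 called the same 6 CpGs and no other member, where 0.165% of all CpGs were called lower and 0.00868% higher. Its fitted change lay between -54.8 and -38.4 points over 5 divisions.

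The late values of Gimap4 are those that led to the choice of the family. At the 6 CpGs the difference ran between -82.5 and -75.0 points at Div8pos against Div0 and between -64.4 and -58.2 points at Div8neg against Div0. With the 2 Gimap3 CpGs of the intron described below, 8 member CpGs were past both limits in the direction of loss at Div8pos against Div0, where 6.61% of all CpGs were (gain, 0.0271%). At Div8neg against Div0, 6 were past them in the direction of loss and 3 in the direction of gain, where 0.781% and 0.0397% of all CpGs were. At the gene level Gimap4 was past the limits in both, where 15.7% of genes were at Div8pos against Div0 and 1.49% (gain, 0.0121%) at Div8neg against Div0.

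The 6-CpG mean differed by -48.6 points at Div5 against Div0, and by -61.2 points at Div8neg against Div0. At Div8pos it was below Div8neg in both hosts, at 4.56% and 4.67% against 21.7% and 23.2%.

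Gimap3, the mitochondrial member, held 2 groups of CpGs that moved in different ways. Upstream, 5 CpGs at 48726016 to 48726171 lay at -5320 to -5165 bp from its start site, in intergenic sequence. Their mean level was 8.18% and 8.06% at Div0, 10.3% and 8.91% at Div1, 9.38% and 12.8% at Div3, and 11.8% and 13.1% at Div5. It was 35.1% and 29.6% at Div8neg and 6.99% and 7.23% at Div8pos. For this mean of the 5 CpGs, both Div8neg samples lay above all other samples, and the Div8pos samples lay below all others. At 48726021 alone, Div5 of host 196 (23.8%) lay above Div8neg of host 197 (22.2%).

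At Div8pos against Div8neg, 4 of these 5 CpGs were called lower. The CpG at 48726021 had 5.71% and 3.76% at Div8pos, against 29.2% and 22.2% at Div8neg, a difference of -21.0 points (adjusted p = 0.00623, quasi-binomial model). The CpG at 48726065 had 10.8% and 16.5% at Div8pos, against 45.8% and 44.6% at Div8neg, a difference of -31.6 points (adjusted p = 0.00199, quasi-binomial model). Levels of the fractions did not overlap at either.

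The CpG at 48726130 had 8.11% and 4.38% at Div8pos, against 41.7% and 29.1% at Div8neg, a difference of -29.1 points (adjusted p = 0.000102, quasi-binomial model). The CpG at 48726171 differed by -25.8 points (adjusted p = 0.0404, quasi-binomial model). The CpG at 48726016, with 5.56% and 7.14% at Div8pos and 23.1% and 26.9% at Div8neg, was not called. With 3 Gimap4 CpGs, which get no test here, 7 of the 27 member CpGs were past both limits, where 0.636% of all CpGs were called lower and 0.00697% higher.

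With the replicate block, which pairs samples by host, 3 of the 4 Gimap3 CpGs were called, and 48726171 was not (adjusted p = 0.0554, quasi-binomial model). The number of these Gimap3 calls depended on single samples. It was 2 without the Div8neg sample of host 196, 1 without that of host 197, 3 without the Div8pos sample of host 196 and 0 without that of host 197. The Div8neg sample of host 197 was also the highest at Gimap1 and at the outer Gimap4 CpGs. At the 194911 CpGs with at most 5% in both Div1 samples, the mean level was 1.98% and 2.40% at Div8neg, and between 1.59% and 2.27% in the Div0, Div3, Div5 and Div8pos samples. At Div8pos against Div8neg the mean of the 5 upstream CpGs differed by -28.1 points in host 196 and -22.3 in host 197. The part of the Div8neg sample of host 197 in the Gimap3 difference was not tested.

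At Div8neg against Div5, 1 member CpG was called higher, 48726130, with 41.7% and 29.1% at Div8neg and 2.38% and 9.35% at Div5. The difference was 29.5 points (adjusted p = 0.00904, quasi-binomial model), and 0.118% of all CpGs were called lower and 0.00986% higher. It was not called when any 1 of the 4 samples was left out, with adjusted p between 0.0914 and 0.188. At Div8neg against Div0 the 3 CpGs past both limits in the direction of gain were 48726021, 48726065 and 48726130, higher by 23.8, 29.2 and 28.2 points.

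In the gene, 2 CpGs of an intron, 48719531 and 48719748, went the other way. Their mean level was 80.1% and 87.0% at Div0, 82.2% and 87.0% at Div1, 77.3% and 79.1% at Div3, and 74.2% and 78.4% at Div5. It was 62.2% and 65.0% at Div8neg and 46.2% and 42.3% at Div8pos. The fractions after Div5 did not overlap with any earlier one.

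At Div8pos against Div5 both were called lower, with a difference of -28.5 points at 48719531 (adjusted p = 0.0160) and of -35.7 points at 48719748 (adjusted p = 0.00157, quasi-binomial model). With 5 Gimap4 CpGs, which get no test here, that made 7 of 27, where 4.5% of all CpGs were called lower and 0.00868% higher. Neither Gimap3 CpG was called without the Div5 or the Div8pos sample of host 197, and 1 was without the Div8pos sample of host 196. At Div8pos against Div0 the differences were -38.0 and -40.7 points.

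The last 2 Gimap3 CpGs of the first table, 48712165 and 48712380, lay beyond the transcript end and stayed methylated. They had 92.9% and 97.7%, and 95.8% and 98.2%, at Div0. They had 87.5% and 78.8%, and 96.2% and 88.6%, at Div8pos. Neither was called in any comparison.

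**Figure D4:**
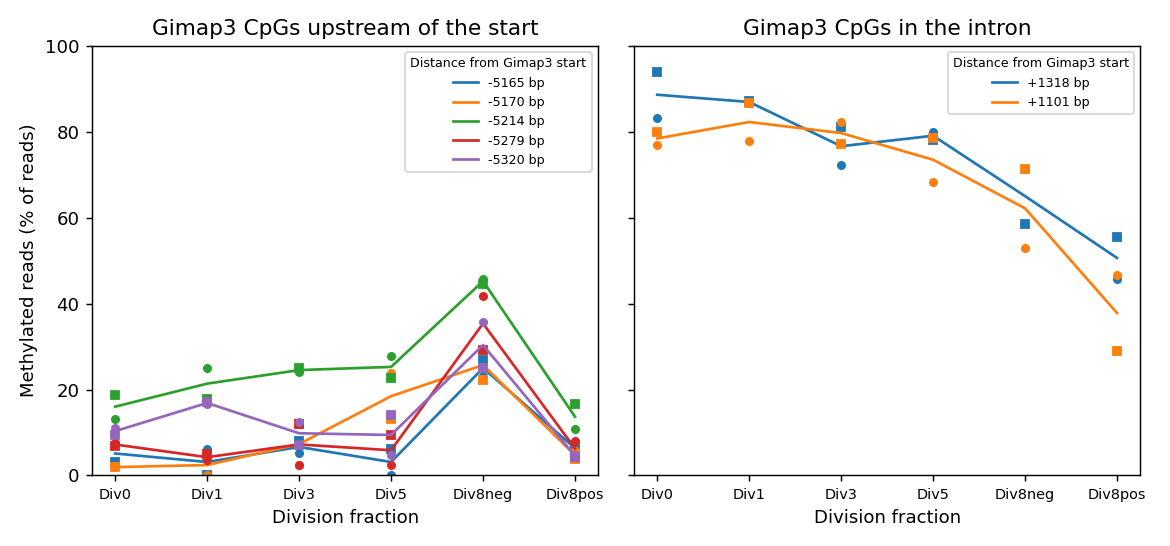
Methylation (percent of reads, vertical axis) of the 5 CpGs upstream of Gimap3 (left) and of the 2 CpGs in its intron (right) by division fraction. Lines join the means of the hosts, circles are host 196 and squares host 197. The upstream CpGs peak at Div8neg, between 25% and 45.2% on average, and the intron CpGs are lowest at Div8pos.

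Over its 9 CpGs, the gene level of Gimap3 was 44.4 ± 1.59% at Div0, and 45.6 ± 0.432% at Div5. In the late fractions it was 51.3 ± 1.30% in Div8neg cells and 33.3 ± 1.80% in Div8pos cells (SD over 2 hosts). At Div8pos against Div8neg it differed by -18.0 points (SE 1.26, adjusted p = 0.000138, limma), where 2.09% of genes were called lower and 0.00606% higher. At Div8pos against Div5 it differed by -12.3 points (SE 1.26, adjusted p = 4.54e-05, limma), where 10.6% of genes were. With reads summed over its CpGs in place of their mean, this difference was -6.17 points (adjusted p = 0.0905, limma). At Div8neg against Div5 the gain of 5.72 points (adjusted p = 0.0175, limma) stayed under the limit of 10 points, where 0.388% of genes were called lower and 0.00606% higher.

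Up to Div5, the gene level of Gimap3 showed no called change. It differed by -0.551 points at Div5 against Div1 (SE 1.26, adjusted p = 0.958, limma), and the trend over Div0 to Div5 gave 0.395 points (SE 1.07, adjusted p = 0.901, limma).

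Gimap1, needed for mature B and T cells in mice, was nearly free of methylation at its start site. Its 7 CpGs lay 0 to 223 bp from the start, in the promoter, the 5′ UTR and the first stretch of an intron. Their mean level was 1.30% and 0.321% at Div0, 1.72% and 1.18% at Div5, 0.930% and 6.38% at Div8neg, and 1.32% and 1.04% at Div8pos. The hosts differed most at Div8neg, where host 197 was highest.

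The Gimap1 CpGs of highest coverage were 48689262, 48689266 and 48689270, which tied at a median of 75 reads. Across the 12 samples they had at most 6.15%, 7.14% and 6.15%, and each was at 0% in some samples. No Gimap1 CpG was called in any comparison or trend. At the gene level the difference was 0.267 points at Div5 against Div1 (SE 1.44, adjusted p = 0.983, limma) and -2.47 points at Div8pos against Div8neg (SE 1.44, adjusted p = 0.169, limma). Without the Div8neg sample of host 197 this last difference was 0.254 points.

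Gimap5, whose loss shortens the life of lymphocytes in mice and rats, had 2 CpGs in its promoter and 1 far away. The promoter CpGs, at -293 and -105 bp from the start site, had between 0% and 14.3% and between 0% and 8.33% across the 12 samples. The third, at 48709032, was methylated throughout, with 93.8% and 96.4% at Div0, 96.4% and 92.9% at Div8neg, and 80.6% and 95.7% at Div8pos. Its nearest start site is that of Gimap3, 11817 bp away. None of the 3 was called, and with fewer than 5 CpGs the gene was not tested as a whole.

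**Figure D5:**
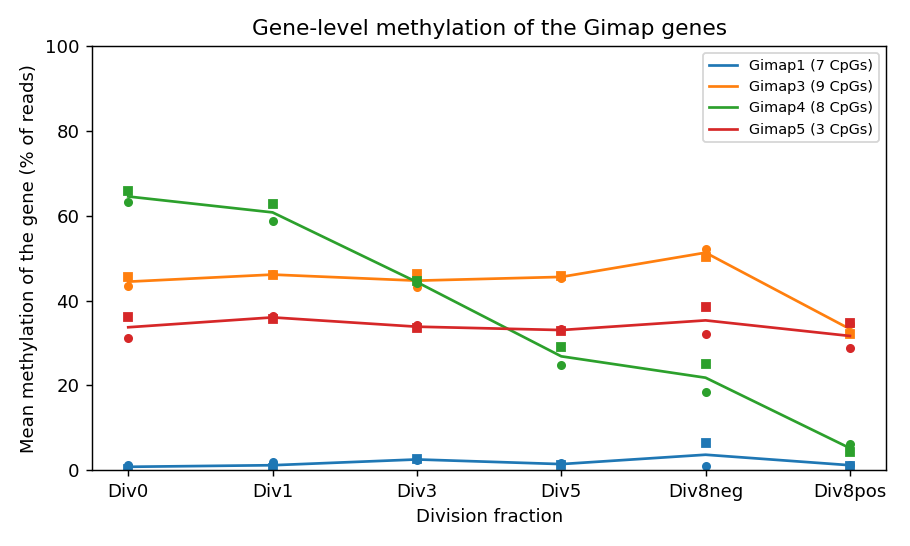
Mean methylation of the CpGs of Gimap1, Gimap3, Gimap4 and Gimap5 (vertical axis, percent of reads) by division fraction (horizontal axis). Lines join the means of the hosts, circles are host 196 and squares host 197. Gimap4 has 5.20% at Div8pos and 64.5% at Div0, while Gimap1 stays under 7% and Gimap5 between 28.7% and 38.5% in all samples.

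The wider table added 47 CpGs, each with 10 to 103 reads per fraction, which are described without a test because the share of reads from each host differs. Of these, 23 had at least 80% in all 6 fractions, among them 11 of Gimap3, 8 of Gimap5, 3 of Gimap8 and 1 of Gimap6. At Div8pos 10 of the 47 were lower than at Div0 by at least 20 points, where 15.1% of the 879250 CpGs outside the first table were. At Div8neg 4 were, where 6.34% of those CpGs were, and at Div5 2, where 2.13% were. In the other direction, 4 were higher than at Div0 by at least 20 points in some later fraction, where 2.9% of those CpGs were, and they were 2 of Gimap1 and 2 of Gimap6. Of these, the Gimap1 exon CpG 48692673 had 95.7% at Div5 and 65.0% at Div0, and 48692565 had 89.3% at Div5 and 64.3% at Div0. The intervals given next are 95% Wilson intervals and cover counting error only.

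The 10 CpGs lower at Div8pos were 5 of Gimap3, 3 of Gimap8 and 2 of Gimap6. In Gimap3 the intron CpG at 48720026, 823 bp from the start, had 3.70% at Div8pos (0.657 to 18.3%, 27 reads) and 50.0% at Div0 (31.4 to 68.6%, 24 reads). The next intron CpG, 48719773, had 49.0% at Div8pos (35.9 to 62.3%) and 85.7% at Div0 (70.6 to 93.7%). These lie beside the intron pair of the first table and show the same direction. Beyond the transcript end, 48712479 had 45.2% at Div8pos (29.2 to 62.2%, 31 reads, all from host 197). At Div0 it had 84.2% (62.4 to 94.5%, 19 reads), and 82.4% in host 197.

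In the Gimap3 promoter, 48721798 and 48721833 were lower in both late fractions. The first had 57.1% at Div8pos, 50.0% at Div8neg and 96.3% at Div0, from 16 to 35 reads. The second had 59.1% at Div8pos, 54.5% at Div8neg and 90.3% at Div0, from 11 to 31 reads. Its course was not steady, with 63.2% at Div1 (19 reads), 85.0% at Div3 and 81.8% at Div5. At Div8neg the lower level came from host 197, and host 196 had 100% at both, from 4 and 3 reads. The promoter CpG nearest the start, 48721108 at -257 bp, had 42.9% at Div0 and 16.7% at Div5, then 39.1% in Div8neg cells and 27.3% in Div8pos cells.

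Gimap8, the largest protein of the family, had 6 CpGs. Its CpG at 48592311, at -4921 bp from the start, had 15.4% at Div8pos (6.15 to 33.5%, 26 reads) and 36.4% at Div0 (19.7 to 57.0%, 22 reads), and these intervals overlap. The hosts differed at Div0, with 66.7% from 9 reads and 15.4% from 13 reads, and had 18.8% and 10.0% at Div8pos. Its 2 exon CpGs, 48600359 and 48600398, had at least 80% in every fraction. The CpG at 48616139 carries the symbol Gimap8, though the nearest start is that of Gimap9 (-9994 bp), and it had 14.7% at Div8pos and 38.9% at Div0.

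Gimap6, which takes part in autophagy, was measured only at the 3′ end of the gene. Its CpG at 48653646 had 65.6% at Div8pos (48.3 to 79.6%, 32 reads) and 96.9% at Div0 (84.3 to 99.4%, 32 reads). At 48652455 it had 84.4% at Div8pos and, from 10 reads, 60% at Div0. The 2 Gimap7 CpGs lay more than 8 kb before the Gimap1 start and had 84.2% and 76.5% at Div8pos, and 93.8% and 89.7% at Div0.

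Additional CpGs of Gimap1 and Gimap5 kept the contrast between start site and gene body. The Gimap1 CpGs at 48688999 and 48689296 had between 2.17% and 8.89%, and the Gimap5 promoter CpG at 48696136 had at most 6.06%. The 3 Gimap1 exon CpGs, 48692565, 48692627 and 48692673, had between 64.3% and 96.4%. The 8 Gimap5 intron CpGs had at least 90.9% in every fraction.

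None of the genes next to the family was called at Div5 against Div1, Div5 against Div0 or Div8pos against Div8neg in limma. Of all genes, 0.0424%, 0.103% and 2.09% were called lower in these comparisons. On the Gimap4 side the neighbours were AI854703, Zfp775 and Repin1, the nearest 63090 bp from the first member CpG. On the Gimap3 side they were Tmem176b and Tmem176a. Aoc1, with 4 CpGs, was not tested. AI854703 had a level of 10.2% at Div5 and 10.4% at Div1, and Zfp775 had 96.7% at Div5 and 98.2% at Div1. Tmem176b, a membrane protein gene of the immune system 48471 bp from the last member CpG, had 87.1% at Div8pos and 96.1% at Div5, a difference of -9.03 points (adjusted p = 0.000128, limma), under the limit of 10.

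The 5 genes whose levels lay nearest to those of Gimap4 over the 12 samples were Susd3, Pik3ip1, Slamf6, Rap1a and S1pr1. Their mean absolute differences from Gimap4 were 8.35, 10.2, 11.7, 11.7 and 11.8 points, so none followed it closely. Susd3 had 46.7 ± 4.66% at Div0, 34.3 ± 0.234% at Div5 and 7.35 ± 1.15% at Div8pos (SD, n = 2 hosts each). Its level at Div3, 44.6%, was close to that at Div0, whereas Gimap4 differed by -20.2 points at Div3 against Div0 (adjusted p = 0.129, limma).

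Among 18 measured genes of a list for lymphocyte quiescence and homing, processes in which Gimap genes act too, none was called at Div5 against Div1. Of all genes 0.0424% were called lower there. At Div5 against Div0 and in the trend over Div0 to Div5, 0.103% of all genes were called lower. Of the list, 1 was in each, Pik3ip1, an inhibitor of PI3 kinase. It had 39.2 ± 0.95% at Div5 and 56.7 ± 0.663% at Div0 (SD, n = 2 hosts each), a difference of -17.5 points (SE 2.72, adjusted p = 0.0344, limma). At Div8pos against Div5, 3 were called lower, S1pr1, Pik3ip1 and Ms4a4b, where 10.6% of all genes were, and the list's median difference was -4.50 points against -4.59 points for all genes.

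S1pr1, the receptor that lets lymphocytes leave tissues, had 22.7 ± 1.20% at Div8pos and 38.5 ± 1.90% at Div5 (SD, n = 2 hosts each), a difference of -15.8 points (SE 1.31, adjusted p = 1.91e-05, limma). Ms4a4b, a membrane protein of T cells in mice, differed by -12.9 points (SE 1.91, adjusted p = 0.000302, limma). At Div8pos against Div8neg, Pik3ip1 alone was called, with -10.8 points (SE 2.72, adjusted p = 0.0102, limma), where 2.09% of all genes were called lower. Against Div0 the list had 4 genes past the limits at Div8pos, with Foxp1 beside these 3, where 15.7% of all genes were. At Div8neg it had 2, where 1.49% were.

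Of 15 measured Bcl2 family genes, which set the threshold of cell death, 1 was called lower at Div8pos against Div5, where 10.6% of all genes were. It was Bax, a death effector, with 35.5 ± 0.415% at Div8pos and 46.3 ± 1.58% at Div5 (SD, n = 2 hosts each), a difference of -10.8 points (SE 2.26, adjusted p = 0.00204, limma). None was called at Div8pos against Div8neg, where 2.09% of all genes were called lower, or at Div5 against Div1, where 0.0424% were.

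Of 11 measured interferon-induced GTPases, another family of immune GTPases, 3 were called lower at Div8pos against Div5, where 10.6% of all genes were. Iigp1 differed by -13.3 points (SE 1.27, adjusted p = 3.30e-05, limma), and Igtp and Gbp5 by -10.3 and -10.2 points (adjusted p = 0.0171 and 1e-05, limma). The median difference of the list was -8.82 points, against -4.59 points for all genes. None of the 11 was called at Div5 against Div1, where 0.0424% of all genes were called lower.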

How the data were processed

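The libraries were cut with MspI and TaqI per the labels' protocols. The labels name no molecular identifiers, so reads that share a molecule cannot be told apart. Per the submitters' processing notes, Bismark and Bowtie2 were used with genome build mm9, of versions not stated here. The deposited tables give methylated and unmethylated read counts per CpG with both strands joined, per the file headers and the deposited description. They also give methylation as a fraction, which equalled methylated reads over all reads.

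Members and lists were chosen with earlier results of these data known. A quasi-binomial logistic model on fraction was fitted to the reads of every CpG over all 12 samples. Its dispersion, moderated as in limma 3.58.1, was 1.16 for every CpG, and p-values were Benjamini-Hochberg adjusted over 760348 CpGs. Gene levels, the mean percent of at least 5 CpGs within 50 kb of a start site, were tested with limma over 16505 genes. Trends used the division number. The member CpGs named were all those called, or the 2 of highest coverage with any tie. The other genes named were 3 neighbours on each side, the called list genes and the 5 genes nearest to Gimap4 in level. edgeR 4.0.16 was an alternative. The fits were tested on simulated data.

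Same-numbered fractions came from the same host animal per the labels, so the host number pairs samples. Deviations of the hosts had correlations between -0.0158 and 0.0235 over 15 pairs of fractions.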

Additional observations from a re-analysis of the deposited data

Results flagged for a closer look

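At 4 CpGs upstream of Gimap3 the difference from Div5 was not the same at Div8pos as at Div8neg. Div5 cancels when these differences are set against each other, so the values are those of the Div8pos against Div8neg comparison and are no further test. They were -21.0 points at 48726021, -31.6 at 48726065, -29.1 at 48726130 and -25.8 at 48726171. At 48726130 the level was 0.380 points higher at Div8pos than at Div5 and 29.5 points higher at Div8neg than at Div5.

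The gene level of Gimap3 differed by -12.3 points at Div8pos against Div5 and by 5.72 points at Div8neg against Div5. The gap between these, -18.0 points, is again the Div8pos against Div8neg difference.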

How the results depend on the processing

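With the dispersion of each CpG taken alone, 0 member CpGs were called in every comparison. edgeR called 1 member CpG at Div3 against Div1 and 0 at Div5 against Div3. The fit with only the compared fractions called 1 at Div5 against Div3. The replicate block, which pairs samples by host, called 0 there and 6 in place of 7 at Div8pos against Div8neg. A limit of 10 points added 1 CpG called higher at Div5 against Div0, 48726021 of Gimap3. It also put more CpGs past both limits in the direction of loss at Div8pos. Against Div8neg, Gimap4 had 5 in place of 3. Against Div5, Gimap4 had 6 in place of 5 and Gimap3 had 3 in place of 2. Against Div0, Gimap3 had 3 in place of 2. On M values the Gimap4 loss at Div5 against Div1, -33.9 points, missed the threshold.

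Leaving out 1 sample at a time gave 2 to 6 lower calls at Div5 against Div1, 0 to 2 at Div3 against Div1 and 0 at Div5 against Div3. Against Div0 it gave 0 to 2 at Div3, 5 to 6 at Div5, 6 to 8 at Div8pos, and 6 lower and 0 to 3 higher at Div8neg. It gave 3 to 8 at Div8pos against Div5, 1 to 4 at Div8pos against Div8neg, and 0 higher at Div8neg against Div5. The trend kept a count of 6. Gene-level losses ran between -36 and -31.8 points for Gimap4 at Div5 against Div1, -40.5 and -36.3 for its trend, and -19.3 and -16.7 for Gimap3 at Div8pos against Div8neg.

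Uncalled values changed sign. The Gimap3 trend, scaled to 5 divisions, was -0.689 without Div0. It was between -0.530 (without Div0 of host 196) and 0.698 when 1 sample was left out. Gimap1 lay between -5.20 and 0.254 points (without Div8neg of host 197) at Div8pos against Div8neg. At Div5 against Div1 it lay between -0.459 (without Div1 of host 197) and 0.993 points, and was -0.00217 without Div5 of host 196. The causes were not tested. CpGs within 5 kb gave no value for Gimap3 and Gimap4, nor did at least 20 reads for Gimap1 and Gimap3. With 2 hosts and 10 to 141 reads per CpG, small differences could not be resolved.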
